A study of Saccharomyces cerevisiae with 24 samples.

Results

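The nuclear genes of mitochondrial respiration described here are NDI1, QCR6, CYC3, COX5A, ATP7, HAP3 and HAP5, 7 of 6002 nuclear protein-coding genes of Saccharomyces cerevisiae. Each was taken because a listed place of Yrr1 chromatin immunoprecipitation overlapped, by at least 1 bp, its coding sequence or the 500 bp before its start codon on sacCer3. Each has 1 region in the deposited table of 1711 regions, so the 7 genes have 7 regions, and the genes were chosen by these listed peaks and regions, which are given below as a description. Yrr1 is a zinc cluster transcription factor known for activating drug export genes. It carried a Myc tag and was recovered with an anti-Myc antibody from cells of the laboratory strain S96 whose own YRR1 gene was deleted (yrr1Δ) in every group, and libraries of the recovered DNA and of input DNA were sequenced. The cells had been transformed with 1 of 3 alleles, the S96 allele changed at a single residue (YRR1_S96-I775E), the allele of the strain YJM789 (YRR1_YJM789) or the S96 allele itself (YRR1_S96). They were kept for 2.5 h in rich glucose medium (YPD) to which 4-nitroquinoline-N-oxide (4NQO) had been added at 0.25 µg/ml, a DNA-damaging compound exported by a Yrr1-driven pump, or in YPD alone. Each of the 6 groups of allele and medium holds 3 ChIP libraries and 1 input library, 24 libraries in all. The design text speaks of triplicates and the growth protocol of duplicate cultures that were each divided between the media, so a p-value here measures how libraries vary, and part of that variation may be technical. The 3 ChIP libraries of a group share 1 input. A difference between inputs is not part of that variation and cannot be told apart from a difference between groups. No untagged strain was analysed here.

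Respiration passes electrons from NADH through ubiquinone, the cytochrome bc1 complex and cytochrome c to cytochrome c oxidase, and the resulting proton gradient drives the ATP synthase. Budding yeast represses much of this apparatus while it ferments glucose, as in YPD. It is induced on other carbon sources by the Hap2/Hap3/Hap4/Hap5 complex, which binds CCAAT boxes. The YJM789 allele of YRR1 is known for raising resistance to 4NQO while growth on non-fermentable carbon is poorer, which is the question behind looking at these genes.

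The measure used below is the rise, a signal of the deposited region table. It is the ChIP minus input coverage at the strongest point of a region less its mean over the surroundings, on a linear scale. Read totals are not in the tables used here, so depth is unknown. Over 1692 nuclear regions the median rise per library averaged 24.8 to 30.3 in the 6 groups. The surroundings differed more. Their nuclear median was 7.48 ± 1.05 for S96-I775E in 4NQO and 5.84 ± 1.92 in YPD, 10.04 ± 2.83 for YJM789 in 4NQO and -3.45 ± 3.22 in YPD, and 3.89 ± 2.69 for S96 in 4NQO and -10.8 ± 1.81 in YPD (SD, n = 3 libraries each). In S96 libraries from YPD the input therefore lay above the ChIP over most surroundings, and an average of 277.7 nuclear regions had no strongest point, the most of any group. At the strongest point the nuclear median also differed. It was 35.3 ± 1.37 for S96-I775E in 4NQO and 31.7 ± 3.07 in YPD. For YJM789 it was 43.6 ± 7.52 in 4NQO and 23.6 ± 1.99 in YPD. For S96 it was 32.1 ± 3.37 in 4NQO and 21.05 ± 0.51 in YPD (SD, n = 3 libraries each). The YJM789 libraries from 4NQO held 518, 422 and 30 MACS2 ChIP peaks, so the third library stood apart from the other 2.

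Peaks at the 7 genes came mostly from those 2 libraries. MACS2, the peak caller, listed ChIP over input at 13 of 126 pairs of gene and library. Of these, 10 pairs were COX5A, HAP3, HAP5, QCR6 and CYC3 in YJM789 replicates 1 and 2 from 4NQO. The others were COX5A and QCR6 in replicate 2 of S96-I775E from YPD, and HAP3 in replicate 2 of S96 from 4NQO. ATP7 and NDI1 had no ChIP peak in any library. In YJM789 with 4NQO the 5 genes thus had a peak in 2 of 3 libraries, as did 5.53% of all nuclear genes. None of the 7 genes had a peak in 2 libraries of any other group, where the share of all genes was 0.5% for S96-I775E in 4NQO and 0.716% in YPD, 0.1% for YJM789 in YPD, and 0.933% for S96 in 4NQO and 1.0% in YPD. Without YJM789 replicate 1 or replicate 2 from 4NQO, 8 pairs were left.

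**Figure D1:**
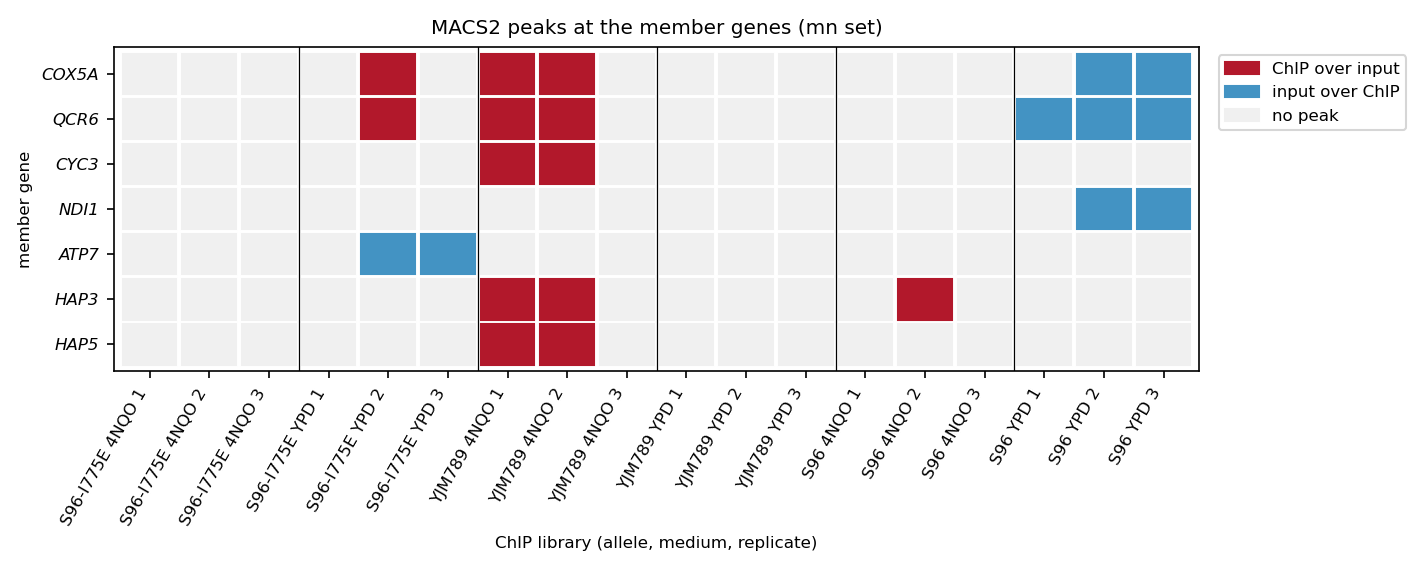
MACS2 peaks at the 7 genes (rows) in the 18 ChIP libraries (columns, named by allele, medium and replicate). Red cells are peaks of ChIP over input, blue cells peaks of input over ChIP and grey cells no peak; 10 of 13 red cells stand in YJM789 replicates 1 and 2 from 4NQO, and 7 of 9 blue cells in S96 libraries from YPD.

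The enrichments were low, and most summits fell inside coding sequence. At QCR6 the fold enrichment was 2.07 in YJM789 replicate 1 and 2.02 in replicate 2 from 4NQO, with 2.15 in S96-I775E replicate 2 from YPD. These 3 summits lay 37, 56 and 47 bp after the QCR6 start codon. A second peak of YJM789 replicate 2, with a fold of 1.71, had its summit 406 bp before it, inside the neighbouring gene PHO4. At CYC3 the folds were 1.78 and 1.69 in YJM789 replicates 1 and 2 from 4NQO, with summits 221 and 184 bp after the start codon. At HAP5 they were 1.78 and 1.83 in the same libraries, 289 and 375 bp after the start codon, so that no peak at CYC3 or HAP5 had its summit in a promoter. The highest fold at COX5A was 1.94, in YJM789 replicate 1 from 4NQO, and that at HAP3 was 2.02, in replicate 2. The highest −log10 q at any of the genes was 6.86, at QCR6 in S96-I775E replicate 2 from YPD. With a fold of at least 2 asked for, 4 of the 13 pairs remained, 3 at QCR6 and 1 at HAP3.

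MACS2 was also run in reverse by the authors, for input over ChIP, and 9 pairs of gene and library came from that list. In S96 cells from YPD it named QCR6 in all 3 libraries and COX5A and NDI1 in replicates 2 and 3. In S96-I775E cells from YPD it named ATP7 in replicates 2 and 3. Reverse peaks in at least 2 of 3 libraries were found at 7.35% of all nuclear genes in S96 cells from YPD and at 0.167% in S96-I775E cells from YPD. In the other groups they were found at 0.183% of all genes for S96-I775E in 4NQO, 0.333% for YJM789 in 4NQO, 2.0% for YJM789 in YPD and 0.566% for S96 in 4NQO, and at none of the 7 genes. COX5A carried both kinds of peak at nearly the same place. Its ChIP summits lay 153 bp after the start codon in S96-I775E replicate 2 from YPD, 97 bp after it in YJM789 replicate 1 from 4NQO, and 192 bp before and 43 bp after it in replicate 2. Input summits lay 162 bp before and 149 bp after it in S96 replicate 2 from YPD and 152 bp after it in replicate 3. At QCR6 the input summit, 454 bp before the start codon in all 3 S96 libraries, lay within PHO4. The 3 libraries of a group share their input, so these reverse peaks are not independent of each other. None of 1041 CisGenome peaks, a second caller's list, overlapped any of the 7 genes.

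Differences in the rise were tested with limma on log2(rise + 1) in one fit of all 6 groups, with Benjamini-Hochberg adjustment over 1350 regions in each of 13 comparisons and a threshold of 0.05. All 7 regions entered the fit, HAP5 with 1 and ATP7 with 3 libraries in which no strongest point was listed. The regions were listed and the 7 genes picked from these same libraries, so the test is not independent of either choice. The regions of ATP7 and NDI1 held reverse MACS2 peaks but no MACS2 ChIP peak in the set used here. Of 91 tests on the 7 regions 4 passed, 3 of them at CYC3. With 4NQO against YPD in YJM789 cells, CYC3 was the only one of the 7 that passed, and was higher, against 6.81% of all regions, 6.15% being higher. Between S96-I775E and YJM789 in 4NQO it was again CYC3, lower, against 3.85% of all regions, 3.19% being lower. COX5A was the 1 call, lower, between S96-I775E and S96 in YPD, against 6.81% of all regions, 4.96% being lower. The 4NQO response differed between S96-I775E and YJM789 for CYC3, against 2.0% of all regions, 1.63% being lower.

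In the other 9 comparisons limma called none of the 7 regions. The shares of all regions called there were 1.85% for S96-I775E against S96 in 4NQO, 2.15% for S96-I775E against YJM789 in YPD, 3.41% for YJM789 against S96 in 4NQO and 2.07% in YPD. They were 2.59% for 4NQO against YPD in S96-I775E cells, 2.59% in S96 cells and 4.0% over the mean of the 3 alleles. For differences of the 4NQO response they were 2.59% between S96-I775E and S96 and 3.93% between YJM789 and S96. At an unadjusted limma p under 0.05, these 9 comparisons held from 0 of the 7 regions (YJM789 against S96 in YPD, where 16.8% of all regions passed this threshold) to 4 (4NQO against YPD over the 3 alleles, 17.2%). The median log2 difference of the 7 regions for 4NQO against YPD was -0.12 in S96-I775E cells, 0.36 in YJM789 cells and -0.04 in S96 cells, beside 0.09, 0.25 and -0.13 over all regions. The 7 regions thus did not move as a block, and the share called, where any was, rested on single genes.

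**Figure D2:**
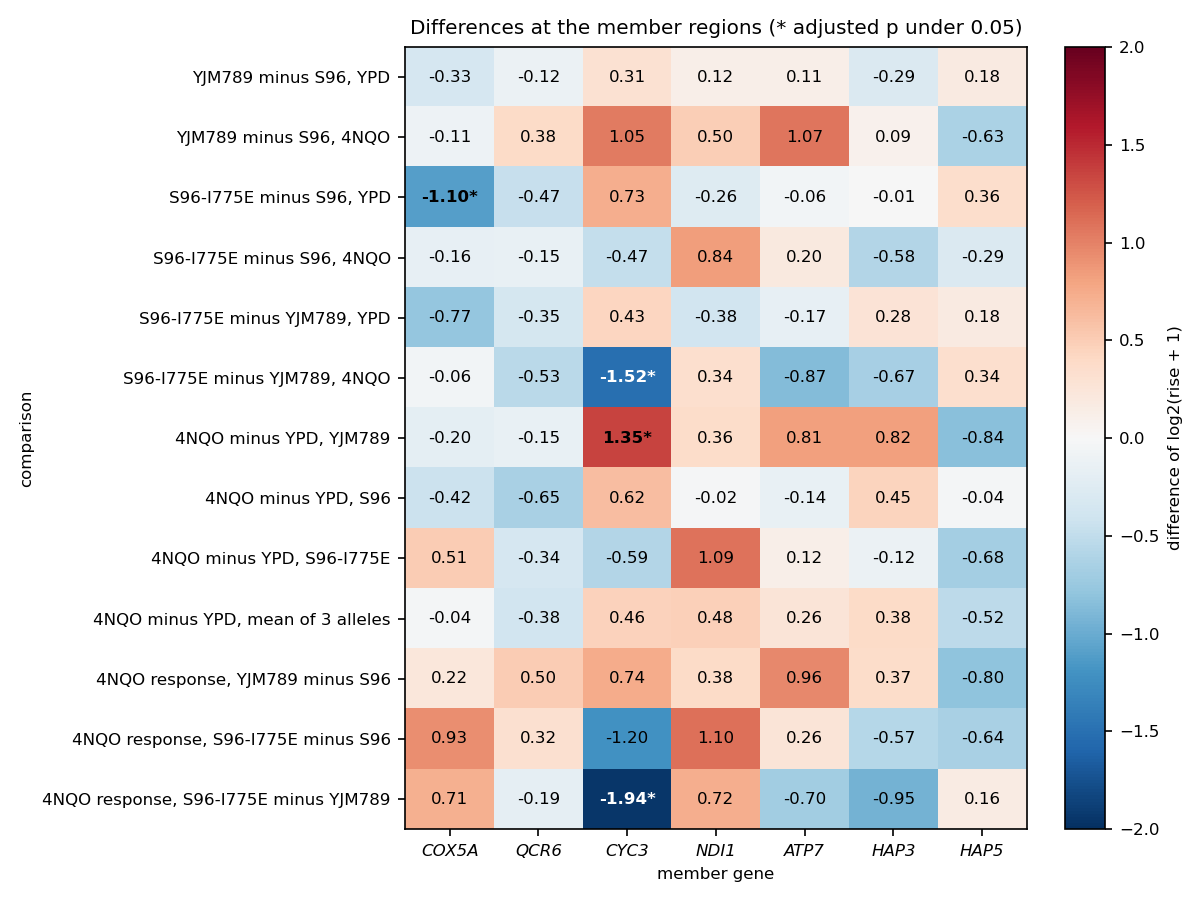
Differences of log2(rise + 1) at the 7 regions (columns) in the 13 comparisons (rows), the first-named group minus the second; red is higher and blue lower in the first-named group, and a star marks an adjusted p under 0.05. The 4 starred cells are CYC3 in 3 comparisons (1.35, -1.52 and -1.94) and COX5A in 1 (-1.10).

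CYC3 (YAL039C, chromosome I 68716 to 69525, minus strand) encodes cytochrome c haem lyase, which attaches haem to apocytochrome c in the intermembrane space. In YJM789 cells its rise was higher in 4NQO than in YPD, on average 67.1 ± 28.5 against 25.6 ± 11.1, and in 4NQO it was lower in S96-I775E cells, at 21.9 ± 5.04 (SD, n = 3 each). In S96-I775E cells the rise was 27.5, 20.5 and 17.7 in 4NQO, against 29.2, 30.2 and 40.4 in YPD. In YJM789 cells it was 99.2, 44.8 and 57.4 in 4NQO, against 19.2, 38.4 and 19.1 in YPD. In S96 cells it was 34.4, 33.0 and 24.3 in 4NQO, against 27.1, 17.8 and 15.01 in YPD. The 3 YJM789 libraries from 4NQO were the highest of all 18, replicate 1 far above the others, and did not overlap any other group. For this gene and those below, the share of all regions with groups so separated was not counted. Against S96 in 4NQO the YJM789 log2 difference was 1.05 ± 0.34 (SE), and its limma adjusted p of 0.0809 missed the threshold. With 4NQO against YPD in S96 cells it was 0.62 ± 0.34, with a limma adjusted p of 0.345.

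For CYC3 with 4NQO against YPD in YJM789 cells the log2 difference was 1.35 ± 0.34 (SE), 2.56-fold, with an adjusted p of 0.0155 by limma. Between S96-I775E and YJM789 in 4NQO it was -1.52 ± 0.34, with a limma adjusted p of 0.0122. The 4NQO response, which was -0.59 in S96-I775E cells and 1.35 in YJM789 cells, differed by -1.94 ± 0.48 with a limma adjusted p of 0.0362. All 3 calls were lost without YJM789 replicate 1 from 4NQO, where the values were 1.03, -1.20 and -1.62 with limma adjusted p of 0.113, 0.0788 and 0.11. The 4NQO call in YJM789 cells was also lost without YJM789 replicate 1 or 3 from YPD (both 1.19, limma adjusted p of 0.0827 and 0.084). That between alleles in 4NQO was lost without S96-I775E replicate 2 (-1.48, limma adjusted p of 0.0508) or 3 (-1.38, 0.0562) from 4NQO. The call of the response was lost without either of these (-1.91 and -1.81), without S96-I775E replicate 2 (-2.003) or 3 (-1.80) from YPD, or without YJM789 replicate 1 or 3 from YPD (both -1.78), with limma adjusted p from 0.0633 to 0.0862. All 3 were also lost in the second parameter set that the authors deposited, marked m2, in which the YJM789 rise was 33.7 ± 8.31 in 4NQO and 22.6 ± 14.3 in YPD (SD, n = 3 each).

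The strongest point of CYC3 lay at the same base, 69324, in all 3 YJM789 libraries from 4NQO, 201 bp after the start codon. In the m2 set these libraries had it 295, 214 and 295 bp after the start codon. In S96-I775E libraries it lay 205, 63 and 450 bp after the start codon in 4NQO, against 311, 289 and 290 bp in YPD. In S96 libraries it lay 53 bp before, 186 bp after and 5 bp after it in 4NQO, against 53 bp before, 46 bp before and 423 bp after it in YPD. The region, 68816 to 69578, is 93.1% CYC3 coding sequence and ends 53 bp before the start codon. All 18 strongest points therefore had to lie in that span, and 3 of them lay within 10 bp of its end. The ChIP minus input coverage at the strongest point averaged 71.5 ± 14.5 in YJM789 cells from 4NQO and 23.4 ± 9.42 in YPD. In the surroundings it spread from -18.9 to 34.6 over the 3 YJM789 libraries from 4NQO. The low surroundings belonged to replicate 1, the library with the highest rise. The coding sequence around the shared strongest point reads, on the gene's strand, with that base in capitals:
CYC3, chrI:69224-69423, minus strand: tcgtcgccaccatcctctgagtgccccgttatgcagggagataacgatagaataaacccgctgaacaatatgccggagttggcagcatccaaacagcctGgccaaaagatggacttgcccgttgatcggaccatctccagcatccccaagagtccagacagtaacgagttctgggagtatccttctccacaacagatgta
The region of CYC3 had the highest G+C share of the 7, 51.4%, beside a median of 41.2% and a 95th percentile of 49.0% over nuclear regions. That of QCR6, at 49.8%, was also above this percentile.

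COX5A (YNL052W, chromosome XIV 531725 to 532186, plus strand) encodes subunit Va of cytochrome c oxidase, the isoform used in air, whose counterpart COX5B serves when oxygen is scarce. In YPD its rise was lower in S96-I775E than in S96 cells, at 19.8 ± 2.54 against 44.5 ± 12.2 (SD, n = 3 each). In S96-I775E cells it was 27.0, 20.9 and 40.9 in 4NQO, against 18.4, 22.7 and 18.4 in YPD. YJM789 libraries had 34.7, 26.6 and 28.3 in 4NQO, against 49.8, 26.9 and 29.9 in YPD. S96 libraries had 25.2, 35.3 and 36.9 in 4NQO, against 49.2, 30.7 and 53.6 in YPD. The S96-I775E libraries from YPD were below every S96 and YJM789 library, and the other 5 groups overlapped one another.

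For COX5A between S96-I775E and S96 in YPD the log2 difference was -1.10 ± 0.32 (SE), with a limma adjusted p of 0.0378. The parts of the rise ran the other way. At the strongest point, ChIP minus input coverage was 35.8 ± 10.5 in S96-I775E cells and 22.0 ± 16.3 in S96 cells, a difference of 13.9 with a limma adjusted p of 0.229. In the surroundings it was 16.0 ± 8.51 in S96-I775E cells and -22.5 ± 9.31 in S96 cells, a difference of 38.6 with a limma adjusted p of 5.17e-05. The lower rise thus went with higher coverage in the surroundings, and the part of the input in it was not tested. The call was lost without S96-I775E replicate 1, 2 or 3 or S96 replicate 1 or 3 from YPD, with values from -1.19 to -0.94 and limma adjusted p from 0.0558 to 0.131, and with library medians set equal (-0.85, limma adjusted p of 0.113). The strongest points of S96-I775E libraries from YPD were spread over 995 bp and those of S96 libraries over 853 bp, and the region also takes in 354 bp of the end of MSG5, a phosphatase gene. The stretch before the COX5A start codon holds 2 CCAAT boxes, in capitals, the first on the gene's strand and the second, read as ATTGG, on the other:
COX5A, chrXIV:531525-531724, plus strand: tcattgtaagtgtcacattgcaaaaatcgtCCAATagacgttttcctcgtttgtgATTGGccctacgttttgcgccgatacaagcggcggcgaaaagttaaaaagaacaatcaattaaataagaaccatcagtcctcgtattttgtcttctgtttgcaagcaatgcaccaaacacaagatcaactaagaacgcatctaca

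**Figure D3:**
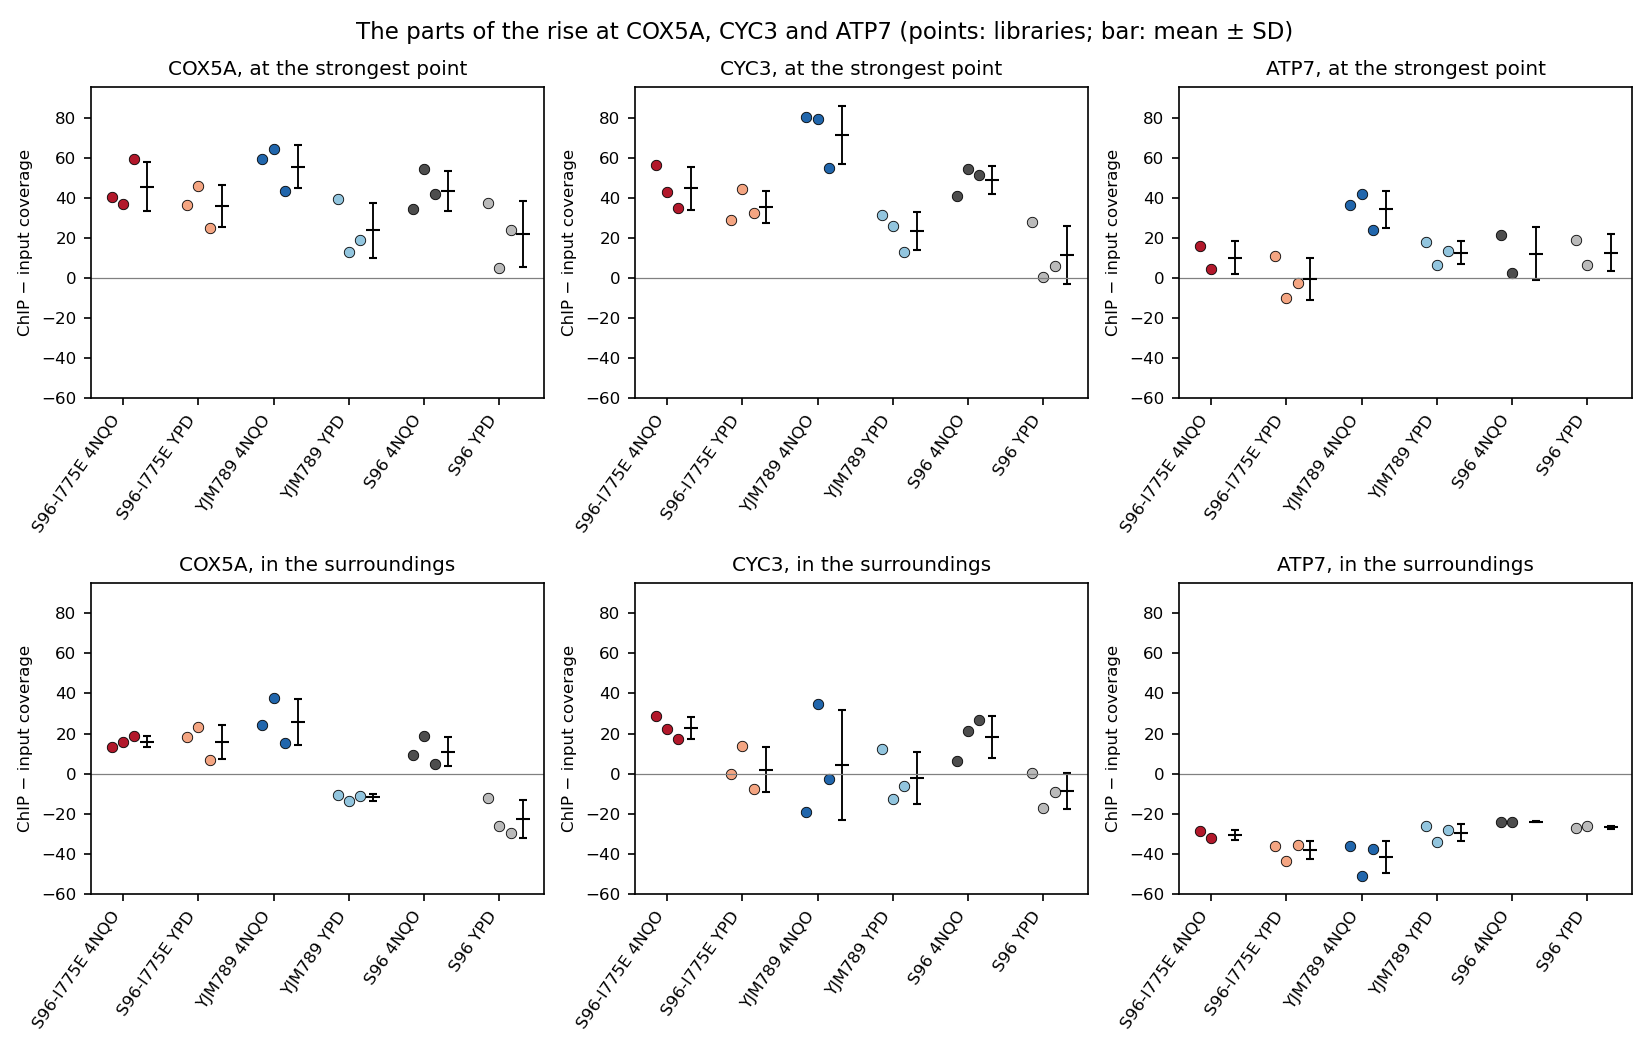
ChIP minus input coverage (y axis, coverage units) at the strongest point (top) and in the surroundings (bottom) of the COX5A, CYC3 and ATP7 regions by group; points are libraries and bars mean ± SD. COX5A surroundings lie below 0 in all S96 and YJM789 libraries from YPD and above 0 in the other groups, while ATP7 surroundings lie below 0 in every library.

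NDI1 (YML120C, chromosome XIII 28266 to 29807, minus strand) encodes the internal NADH dehydrogenase, a single protein that takes the place of the multi-subunit complex I that yeast lacks. In S96-I775E cells its rise was 62.3, 51.9 and 35.9 in 4NQO, against 21.8, 21.4 and 24.3 in YPD. In YJM789 cells it was 39.7, 37.3 and 38.0 in 4NQO, against 32.6, 26.3 and 30.1 in YPD. In S96 cells it was 31.1, 25.3 and 24.6 in 4NQO, against 16.7, 29.3 and 40.9 in YPD. The S96-I775E and the YJM789 libraries did not overlap between the media, and the S96 libraries did. How many of all regions did not overlap in this way was not counted. In YJM789 cells the log2 difference was 0.36 ± 0.31 (SE), with a limma adjusted p of 0.563. The S96-I775E difference was 1.09 ± 0.31 (SE) on the log2 scale, 2.12-fold, and its limma adjusted p of 0.0502 missed the threshold. It passed with a pseudocount of 10 (0.0439), with the linear rise (0.0358) and over regions with a value in every library (0.04). It also passed, by limma adjusted p, without S96-I775E replicate 3 from 4NQO (1.30, 0.0465), whose rise was the lowest of its group, and without S96 replicate 1 or 3 from YPD (1.09, 0.0306 and 0.0407), which enter only through the shared spread. Leaving out each library in turn gave 0.91 to 1.30, with limma adjusted p between 0.0306 and 0.224, and the lowest difference and highest p came without S96-I775E replicate 1 from 4NQO, whose rise of 62.3 was the highest of its group. In the m2 set the difference was 1.05 with a limma adjusted p of 0.158. The difference of the 4NQO response between S96-I775E and S96 was 1.10 ± 0.43, with a limma adjusted p of 0.174.

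The strongest point of NDI1 in S96-I775E cells from 4NQO lay 439, 451 and 439 bp before the start codon, 12 bp apart at most. It lay 181, 353 and 189 bp before it in the same cells from YPD. In YJM789 cells from 4NQO it lay 315, 315 and 405 bp before it. The places in S96-I775E cells with 4NQO were thus farther from NDI1 than those without, and the region lies between NDI1 and the divergent gene YML119W, whose coding sequence starts 110 bp beyond it. Coverage at the strongest point was 59.4 ± 9.53 in S96-I775E cells from 4NQO and 26.9 ± 2.27 in YPD, with surroundings of 9.35 ± 3.74 and 4.43 ± 1.63 in the same order (SD, n = 3 each). The surroundings of NDI1 were on the same side of 0 in both groups. Those of COX5A were too, at 15.99 in S96-I775E cells from 4NQO and 16.01 in YPD. The span of the 3 strongest points from 4NQO is in capitals:
NDI1, chrXIII:30146-30345, minus strand: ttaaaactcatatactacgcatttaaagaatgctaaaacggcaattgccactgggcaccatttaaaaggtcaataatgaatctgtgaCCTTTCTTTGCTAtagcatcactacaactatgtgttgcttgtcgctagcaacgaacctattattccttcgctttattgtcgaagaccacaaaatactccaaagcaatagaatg

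QCR6 (YFR033C, chromosome VI 224326 to 224769, minus strand) encodes the acidic hinge subunit of the cytochrome bc1 complex. Its region, 224402 to 226575, is the longest of the 7 at 2174 bp, and QCR6 coding sequence makes up 16.9% of it. PHO4, a phosphate-regulated transcription factor gene, makes up 43.2%, and the tRNA gene YNCF0014C lies 113 bp beyond the far end. In S96-I775E cells the rise was 28.6, 27.6 and 41.0 in 4NQO, against 46.3, 34.3 and 41.9 in YPD. For YJM789 it was 62.0, 46.7 and 35.0 in 4NQO, against 52.8, 44.5 and 59.2 in YPD. For S96 it was 29.1, 51.3 and 30.1 in 4NQO, against 56.1, 45.1 and 70.9 in YPD. The media overlapped within each allele, and the lowest limma adjusted p of any comparison was 0.202, for 4NQO against YPD in S96 cells (-0.65 ± 0.29 on the log2 scale, SE). The median rise of 44.8 was at the 93.6th percentile of nuclear regions, but the strongest point fell in QCR6 or the 500 bp before it in 9 of 18 libraries, and in 0 of 3 S96 libraries from 4NQO. In the other libraries the rise was read at a place beyond that window, in or past PHO4.

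ATP7 (YKL016C, chromosome XI 407465 to 407989, minus strand) encodes subunit d of the ATP synthase stalk. Its region starts 51 bp before the gene and reaches 130 bp into PUT3, the divergent gene of the proline-responsive activator. In S96-I775E cells the rise was 44.9 and 36.4 in 4NQO, with replicate 3 empty, against 46.7, 33.3 and 33.2 in YPD. In YJM789 cells it was 72.4, 93.0 and 61.7 in 4NQO, against 43.6, 40.8 and 41.8 in YPD. In S96 cells it was 45.5 and 26.9 in 4NQO, with replicate 3 empty, against 46.4 and 32.4 in YPD, with replicate 2 empty. The YJM789 libraries from 4NQO were above all 12 others with a value, which overlapped between groups. Against S96 in 4NQO the log2 difference was 1.07 ± 0.31 (SE), 2.1-fold, with a limma adjusted p of 0.0504 that missed the threshold. It passed with a pseudocount of 10 (0.0429) and with the linear rise (0.0299), and by limma adjusted p without YJM789 replicate 3 from 4NQO (1.21, 0.0333), S96 replicate 1 from 4NQO (1.44, 0.0442) or S96 replicate 3 from YPD (1.07, 0.049). Leaving out each library in turn gave 0.70 to 1.44, with limma adjusted p between 0.0333 and 0.347, and the lowest difference and highest p came without S96 replicate 2 from 4NQO, whose rise of 26.9 was the lower of its pair. That library moved the difference by over 1.5 times. In the m2 set all 3 S96 libraries from 4NQO were empty at ATP7, so the comparison could not be made there.

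The high rise at ATP7 went with higher coverage at the strongest point and with lower surroundings. Their ChIP minus input coverage was below 0 in all 15 libraries with a value, and lowest in YJM789 cells from 4NQO, at -41.6 ± 8.11, against -29.4 ± 4.26 in YPD (SD, n = 3 each). At the strongest point coverage was 34.1 ± 9.24 and 12.6 ± 5.61 in the same order. In S96 cells from 4NQO it was 12.15 ± 13.4, with surroundings of -24.1 ± 0.24 (SD, n = 2). The nuclear medians for YJM789 were 43.6 in 4NQO and 23.6 in YPD at the strongest point, and 10.04 and -3.45 in the surroundings. The strongest point of ATP7 thus rose as its nuclear median did, while the surroundings moved against theirs. The strongest point in YJM789 cells from 4NQO lay 624, 536 and 532 bp before the ATP7 start codon, outside the 500 bp by which genes were picked, and on both sides of the first base of PUT3. Over all libraries it fell within the 500 bp in 4 of 15. No library had a ChIP peak there, and the reverse peaks of S96-I775E cells from YPD were centred 301 and 280 bp before the start codon. In the sequence below, on the ATP7 strand, the capitals span the 3 strongest points of YJM789 cells from 4NQO:
ATP7, chrXI:408425-408624, minus strand: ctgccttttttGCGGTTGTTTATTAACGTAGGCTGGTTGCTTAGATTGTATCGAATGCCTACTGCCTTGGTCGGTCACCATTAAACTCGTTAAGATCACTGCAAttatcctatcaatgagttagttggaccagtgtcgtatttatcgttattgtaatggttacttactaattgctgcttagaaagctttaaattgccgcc

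**Figure D4:**
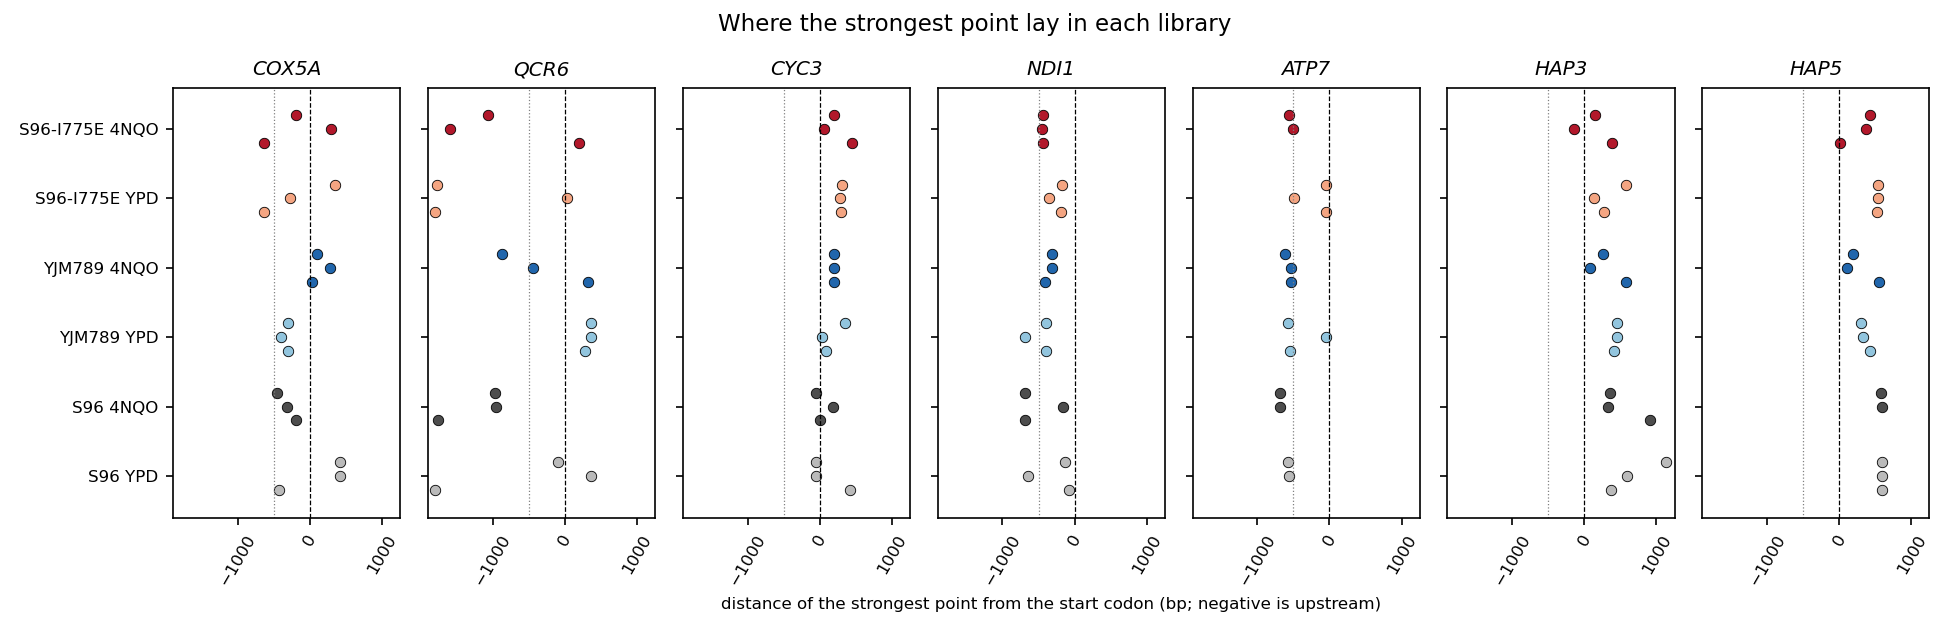
Distance of the strongest point from the start codon (x axis, bp, upstream negative) in each library, 1 panel per gene and 1 row per group of up to 3 libraries; the dashed line is the start codon and the dotted line 500 bp upstream. The points coincide for CYC3 in YJM789 cells from 4NQO (201 bp) and lie within 12 bp for NDI1 in S96-I775E cells from 4NQO. Those of QCR6 range over 2173 bp, from one end of its region to the other. A point can lie only inside its region. Points within 10 bp of a region end ranged from 0 of 18 at COX5A to 5 of 15 at ATP7, with 4 of 18 at QCR6.

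HAP3 (YBL021C, chromosome II 181660 to 182094, minus strand) and HAP5 (YOR358W, chromosome XV 1010161 to 1010889, plus strand) encode histone-fold subunits of the CCAAT-binding complex. At HAP3 the rise was 35.7, 18.8 and 24.3 in S96-I775E cells from 4NQO, against 23.4, 30.5 and 29.9 in YPD. Values for YJM789 were 31.5, 46.0 and 47.2 in 4NQO, against 32.1, 21.7 and 16.7 in YPD. Values for S96 were 50.2, 44.5 and 25.4 in 4NQO, against 28.1, 21.4 and 36.1 in YPD. The media overlapped within each allele, by a narrow margin in YJM789 cells, where the log2 difference was 0.82 ± 0.33 (SE) with a limma adjusted p of 0.137. Coverage at the strongest point of HAP3 was 67.0 ± 8.14 in YJM789 cells from 4NQO and 20.6 ± 13.3 in YPD, and in the surroundings 25.5 ± 11.2 and -2.89 ± 8.18 (SD, n = 3 each). The nuclear medians at the strongest point were 43.6 and 23.6 in the same order. The region also covers 308 bp of PIM1, the gene of the mitochondrial Lon protease, and the strongest point was in HAP3 or its 500 bp upstream in 11 of 18 libraries.

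At HAP5 the rise was 28.6, 23.5 and 18.4 in S96-I775E cells from 4NQO, against 42.2, 32.8 and 39.0 in YPD. With the YJM789 allele it was 21.0, 21.2 and 13.2 in 4NQO, against 48.9, 37.8 and 19.7 in YPD. With the S96 allele it was 29.5 and 27.4 in 4NQO, with replicate 1 empty, against 33.2, 38.9 and 19.4 in YPD. The S96-I775E libraries did not overlap between the media and the others did. In S96-I775E cells the log2 difference was -0.68 ± 0.34 (SE), with a limma adjusted p of 0.316. HAP5 had the opposite sign to HAP3 with 4NQO in YJM789 cells, at -0.84 ± 0.34 (SE) on the log2 scale, and its limma adjusted p of 0.14 also missed the threshold. The lower rise of HAP5 in 4NQO went with higher surroundings, 28.6 ± 13.7 in YJM789 cells from 4NQO and -3.58 ± 12.3 in YPD (SD, n = 3 each), while coverage at the strongest point was 47.1 ± 18.2 and 31.9 ± 5.71. The region, 1010104 to 1010754, is 91.2% HAP5 coding sequence, so the strongest point had little room outside it. In all 17 libraries with a value it was inside the coding sequence, in 4 of them within 10 bp of the region's end. In S96-I775E cells from YPD it lay 533, 533 and 523 bp after the start codon.

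**Figure D5:**
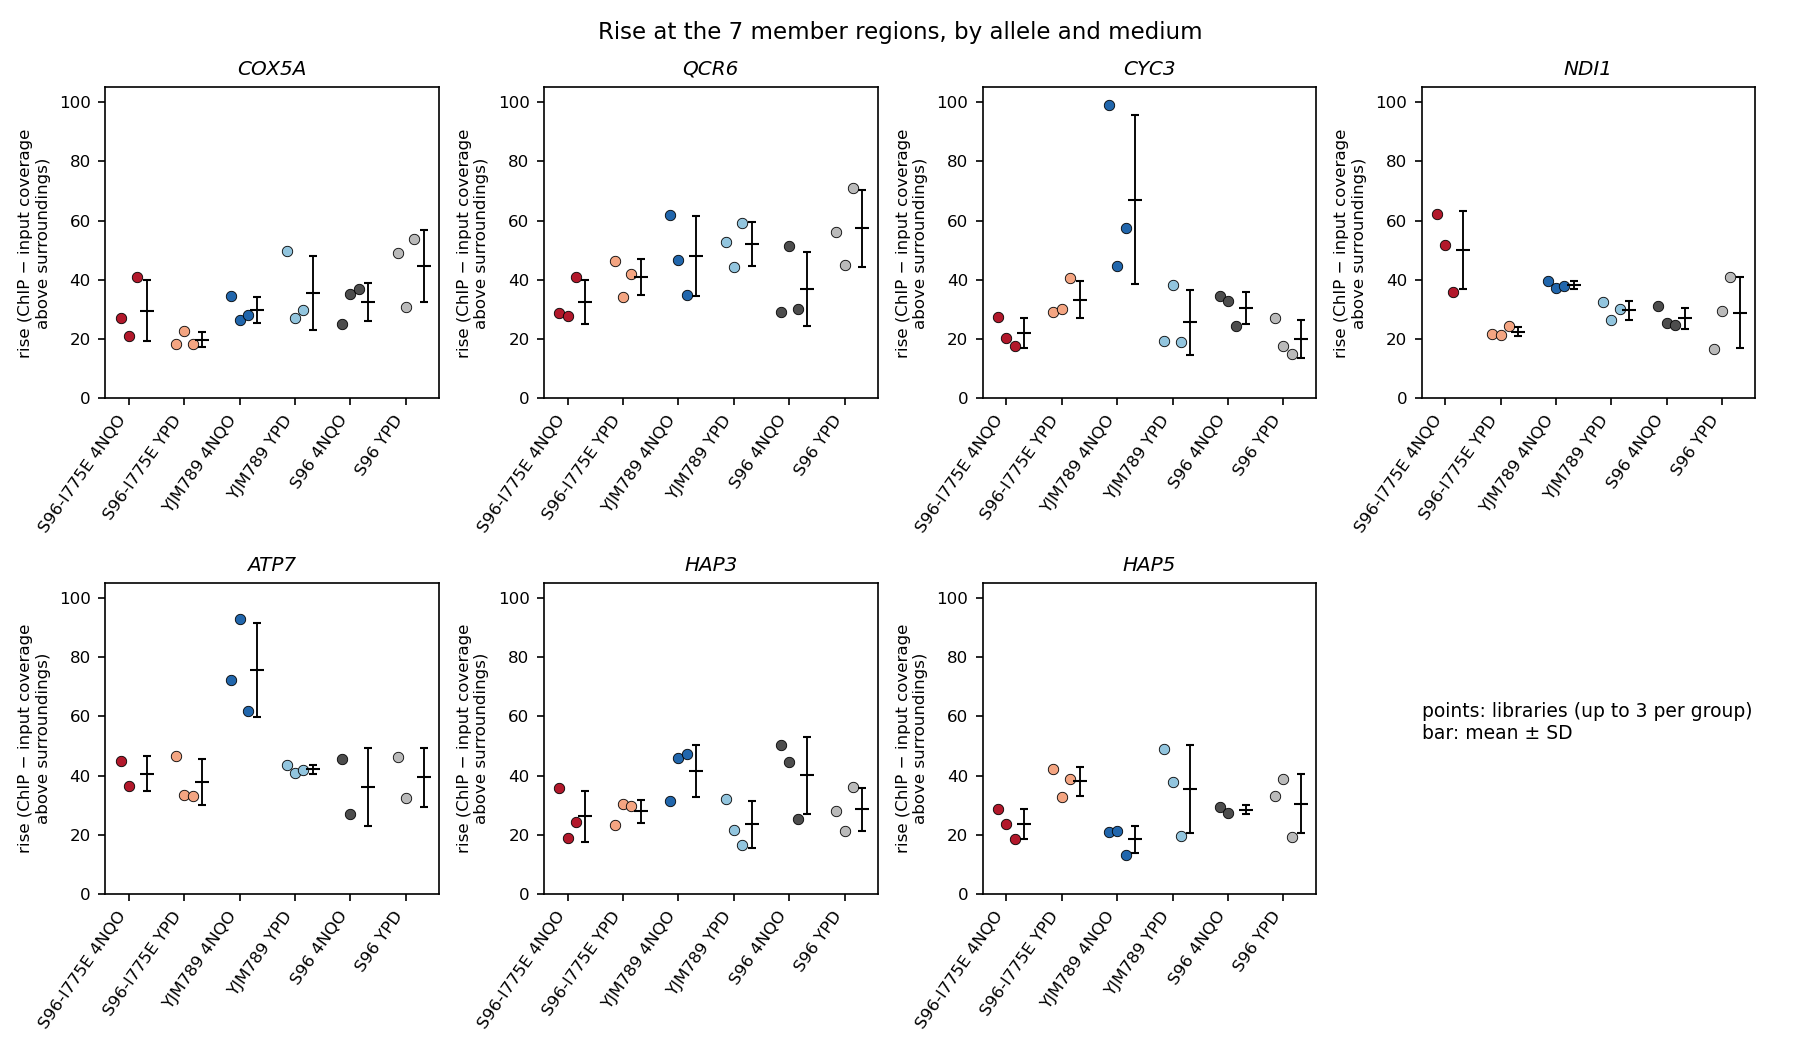
Rise (y axis, ChIP minus input coverage above the surroundings, linear) at the 7 regions in each library, by allele and medium; points are libraries and bars mean ± SD. CYC3 and ATP7 have their highest libraries in YJM789 cells from 4NQO, NDI1 in S96-I775E cells from 4NQO.

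Among themselves the 7 regions shared little. Over the libraries, Pearson's r of log2(rise + 1) between pairs of them lay between -0.49 and 0.59 with a median of -0.00 over 21 pairs, as a description of libraries that share inputs within a group. Similar patterns were sought outside the 7, only among tested nuclear regions with a value in every library. The regions most similar to COX5A were PIB2/STT3 (r = 0.69), IRT1 (0.68) and NCP1 (0.68), each over 18 libraries. Those to CYC3 were SUP19 (0.74), STE4 (0.67) and RAD17/RPS12 (0.67). The closest to ATP7 was GAL3/YDR010C (0.81 over 15 libraries), to QCR6 HSP150/CIS3 (0.78), to NDI1 HMRA2/HMRA1 (0.73), to HAP5 YER135C/YNCE0023W (0.70 over 17 libraries) and to HAP3 MIF2 (0.66). By the median rise over libraries, QCR6 and ATP7 stood at the 93.6th and 93.0th percentiles of nuclear regions, and the other 5 between percentiles 60.1 (CYC3) and 68.3 (NDI1).

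The 7 genes were set beside a list of 63 nuclear genes of the respiratory chain, the ATP synthase, their assembly and the HAP regulators. Of these 63, 14 (22.2%) had a tested region in the coding sequence or the 500 bp upstream, and so had 1763 of 6002 nuclear genes (29.4%). The other 7 were CBP4 and COX14, assembly factors, COX11 and SHY1, needed for cytochrome c oxidase, CYT1 (cytochrome c1), SDH2 (the iron-sulphur subunit of complex II) and HAP2. With limma none of their 8 regions passed in any of the 13 comparisons, and 13 of 104 tests had an unadjusted p under 0.05. The same held for 23 of the 91 tests of the 7 regions and for 18.3% of all region tests in the 13 comparisons. The lowest limma adjusted p was 0.0502, for CBP4 with 4NQO against YPD over the 3 alleles (-0.67 ± 0.20 on the log2 scale, SE), followed by 0.0552 for SDH2 in the same comparison (-0.67 ± 0.20). Among ChIP peaks, those 7 genes added HAP2 in YJM789 replicate 2 from 4NQO, and CYT1 and COX11 in S96 libraries. In YJM789 replicates 1 and 2 from 4NQO, 7.94% and 9.52% of the list had a peak, beside 9.88% and 8.18% of all nuclear genes, so the share of respiration genes was near that of all genes. With 1000 bp upstream 18 list genes had a tested region, and with 250 bp 14.

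Sequence gave 1 match to the Yrr1 response element within the upstream windows of the 7 genes. The element was searched on both strands as NCCGNGNNN, in which the N stand in order for T or A, C or T, G or T, and T or A at the last pair of places. It occurs in 5.37% of 6000 upstream windows of 500 bp, and in 3.08% of 1686 windows of 300 bp at the strongest points of nuclear regions. The match was 91 bp before the start codon of HAP5 and ended before the listed region began, and is in capitals:
HAP5, chrXV:1010041-1010160, plus strand: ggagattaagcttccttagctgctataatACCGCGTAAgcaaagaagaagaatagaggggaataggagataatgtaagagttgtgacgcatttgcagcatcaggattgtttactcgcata
Within the 7 regions the element was found once, in the QCR6 region 1165 bp before the QCR6 start codon and inside PHO4. CCAAT, which is in 62.4% of upstream windows on either strand, occurred before COX5A (2 matches), QCR6 (2), ATP7 (3), NDI1 (2) and HAP3 (1), and had no match in the 500 bp before CYC3 and HAP5. These matches are letters in the reference and not measured sites.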

How the data were processed

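ChIP-seq of Myc-tagged Yrr1 was analysed in 18 ChIP libraries set against 6 inputs. CASAVA 1.7, Bowtie2 2.2.3, MACS2 2.1.0 and sacCer3 are named in the submitters' processing notes, without their roles. The authors deposited MACS2 peaks per library giving for each a pileup (signal), the ratio of enrichment and −log10 values of p and q, under sets marked mn (used here) and m2, which nothing explains. The lowest −log10 q was 1.302. Deposited CisGenome peaks list an FDR (a false discovery rate), the score maxT, a log2 change and a −log10 Poisson value, per the file headers. No source states if they pool the libraries. The region table deposited by the authors holds the rise (a signal), the ChIP minus input score at the strongest point and in the surroundings, and that point's position. The rise equalled the difference of both scores within 1.0e-12, and 7.32% of entries were empty. A further 10 columns of values per library were not used. No counts or depths are given, so no counting interval could be made.

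Genes and sequences came from the RefSeq annotation of the same build. All 7 genes were to be described, with a log2 difference for each comparison passing 0.05 or else that with the lowest adjusted p, and the 3 (or 1, without a call) most similar regions. These were sought among tested nuclear regions with a value in every library. Differences were tested two-sided with limma 3.58.1 in R 4.3.3 on log2(rise + 1), with a mean-variance trend, for regions valued in at least 2 libraries of every group. Folds are on that scale. The 7 genes, the respiration list and the tests were chosen with earlier results of these data known. The scripts were tested on simulated data. Tests of the strongest point and of the surroundings alone, and the m2 count of reverse peaks, were chosen after seeing the data.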

Additional observations from a re-analysis of the deposited data

Results flagged for a closer look

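The 4NQO response of CYC3 differed between S96-I775E and YJM789 cells. It was -0.59 in S96-I775E cells and 1.35 in YJM789 cells on the log2 scale, and the difference of -1.94 ± 0.48 (SE) was tested as an interaction with limma, with an adjusted p of 0.0362 over 1350 regions. The rise was lower in 4NQO than in YPD in all 3 S96-I775E libraries and higher in all 3 YJM789 libraries. Without YJM789 replicate 1 from 4NQO the difference was -1.62 with a limma adjusted p of 0.11. The call held in 11 of 18 fits that left out 1 library, and was lost in the m2 set. In this comparison 2.0% of all regions were called. The other pairs of alleles did not pass. Against S96 the response differed by -1.20 for S96-I775E and by 0.74 for YJM789, with limma adjusted p of 0.188 and 0.397.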

How the results depend on the processing

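The 4 calls over the 7 regions and 13 comparisons stood beside 3.44% of all region tests called. They became 1 in the m2 set (3.13% of all tests there), 9 on the linear rise (3.99%), 2 with empty entries as 0 (3.76%) and 1 with library medians set equal (2.56%). They were 6 with a pseudocount of 10 (3.83%), 5 over regions with a value in every library (4.93%) and 3 with only the groups compared (2.72%). Leaving out 1 library gave 1 to 5 calls. It gave 1 without YJM789 replicate 1 from 4NQO, and 2 without S96-I775E replicate 2 from 4NQO, S96-I775E replicate 2 or 3 from YPD, or YJM789 replicate 1 or 3 from YPD. The strongest point alone gave 33 calls of 91 tests and the surroundings alone 35, beside 23.1% and 30.5% of all region tests, chosen after seeing the data. Under these, COX5A between S96-I775E and S96 in YPD turned to 13.87 and 38.56, HAP5 with 4NQO in YJM789 to 15.20 and 32.17, and QCR6 with 4NQO in S96 to 15.63 and 36.19 (coverage units, strongest point and surroundings). In the surroundings, ATP7 between YJM789 and S96 in 4NQO turned to -17.53, and CYC3 to 18.47 between S96-I775E and YJM789 in 4NQO and to 14.21 for the response; these follow from the rise being a difference of both. Same-numbered libraries of an allele did not deviate together (r from -0.07 to 0.07 over 9 pairs), so the numbers were not taken as pairs; with a replicate block there were 5 calls (3.3% of all tests). Of the 13 pairs of gene and library with a ChIP peak, 4 had a fold of at least 2, 10 had a −log10 q of at least 2, and 15 pairs were found in the m2 set; leaving out 1 library gave 8 to 13. The 9 reverse pairs became 13 in the m2 set. In the m2 set CYC3 gave 0.69, -1.08 and -1.43 with limma adjusted p of 0.337, 0.196 and 0.271 for its 3 calls. COX5A was lost with only the groups compared (-1.10, limma adjusted p of 0.0507), and CYC3 with empty entries as 0 (-1.52 and -1.94, limma adjusted p of 0.0576 and 0.0699) and with library medians set equal (1.14 and -1.81, limma adjusted p of 0.0566 and 0.0529). The cause was not tested for the other changes. Unknown depth, 3 libraries a group and 1 input a group limit these values.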
